A study of Mus musculus with 47 samples.

Results

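The Slc25a genes encode the mitochondrial carrier family, the proteins that move nucleotides, metabolites, cofactors and ions across the inner mitochondrial membrane. Genes were taken as members when they were annotated as protein-coding, had a symbol that starts with Slc25a, and reached at least 0.5 RPKM (reads per kilobase of exon per M reads, with M for mega) in at least 12 of 47 libraries. Of 47 protein-coding Slc25a genes listed, 36 passed this minimum and 11 did not. The rule used expression level and no contrast between groups. The libraries were polyadenylated RNA of whole retinas from the right eyes of C57BL/6 mice kept under 12 h of light and 12 h of darkness. Young mice were 6 weeks old and aged mice 20 months old, and both ages were sampled every 4 h at 6 Zeitgeber times (ZT, hours after lights on): ZT2, ZT6, ZT10, ZT14, ZT18 and ZT22. Each age and time had 4 libraries, 1 eye of 1 mouse each, except aged ZT18 with 3, which gives 24 young and 23 aged libraries. The sex of the mice was not given in the sources used here.

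Carriers of this family share a fold of repeated pairs of membrane-spanning helices, and most exchange one solute for another. The ADP/ATP carriers export the ATP made by oxidative phosphorylation. Others feed the malate-aspartate shuttle, supply the matrix with cofactors and iron, or admit acylcarnitines for fatty acid oxidation. Photoreceptors are among the cells with the highest energy use, and their mitochondria are packed in the inner segments close to the choroidal blood supply. Their demand for ATP is known to be higher in darkness, when the ion channels of the outer segment are open.

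Upstream sequences are shown for 4 members that the comparisons below turn on: Slc25a20, the member that differed with age, Slc25a28 with a peak in the light phase, and Slc25a22 and Slc25a25 with peaks in the dark phase. Each is the 250 bases before an annotated RefSeq start on GRCm38.p6, an earlier build than the GRCm39 of the deposited values, and is written 5′ to 3′ on the strand of the gene. Capitals mark letters that match one of 6 motifs on either strand: the E-box CACGTG, the D-box TTANGTAA, the cyclic AMP response element TGACGTCA, the ERR element TCAAGGTCA, the CCAAT box and, given by name alone, the NRF1 site.
Slc25a20, chr9:108661886-108662135, plus strand: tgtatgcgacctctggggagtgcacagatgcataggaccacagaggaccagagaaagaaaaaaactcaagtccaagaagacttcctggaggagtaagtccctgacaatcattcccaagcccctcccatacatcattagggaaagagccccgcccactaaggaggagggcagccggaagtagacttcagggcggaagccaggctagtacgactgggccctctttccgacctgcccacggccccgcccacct
Slc25a28, chr19:43674882-43675131, minus strand: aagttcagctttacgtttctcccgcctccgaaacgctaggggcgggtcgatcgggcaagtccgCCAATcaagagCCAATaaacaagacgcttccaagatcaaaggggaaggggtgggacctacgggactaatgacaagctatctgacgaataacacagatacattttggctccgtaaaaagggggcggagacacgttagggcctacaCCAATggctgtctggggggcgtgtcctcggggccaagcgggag
Slc25a22, chr7:141435376-141435625, minus strand, 1 of 3 listed starts: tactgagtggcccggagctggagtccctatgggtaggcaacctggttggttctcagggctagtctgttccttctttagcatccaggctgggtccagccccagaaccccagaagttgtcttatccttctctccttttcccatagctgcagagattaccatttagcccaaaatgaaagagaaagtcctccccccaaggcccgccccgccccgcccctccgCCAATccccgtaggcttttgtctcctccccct
Slc25a25, chr2:32424067-32424316, minus strand, 1 of 3 listed starts: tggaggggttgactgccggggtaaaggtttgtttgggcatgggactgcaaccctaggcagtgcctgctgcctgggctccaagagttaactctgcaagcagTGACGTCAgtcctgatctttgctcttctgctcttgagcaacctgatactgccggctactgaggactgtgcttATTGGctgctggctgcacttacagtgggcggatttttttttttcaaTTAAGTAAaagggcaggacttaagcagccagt

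No letters of the 6 motifs were found in the Slc25a20 window. The Slc25a28 window held 3 CCAAT boxes, and the Slc25a22 window 1. The Slc25a25 window held a cyclic AMP response element, a D-box and a CCAAT box on the reverse strand. The other listed starts of Slc25a22, not shown, held none of the 6 motifs, and those of Slc25a25 held CCAAT boxes alone. Of the 36 members, 27 had a start in the RefSeq table, with 36 starts in all. The cyclic AMP response element was present in the 250 bases upstream of 2 of these 36 starts, those of Slc25a25 and Slc25a36, and of 1.55% of all 32851 starts. The D-box was present at 1 member start and 2.06% of all starts, the E-box at 6 member starts (Slc25a1, Slc25a14, Slc25a15, Slc25a33 and Slc25a36) and 6.02% of all, and the CCAAT box at 18 member starts and 33.8% of all. No member window held the ERR element or the NRF1 site, which 0.387% and 0.782% of all windows held. None of the 6 motifs contains another, and these matches describe letters only.

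Both ADP/ATP carriers dominated the family's transcripts. Slc25a4, which encodes the ADP/ATP carrier of heart, muscle and neurons, had a mean of 214 RPKM over all libraries, and Slc25a5, which encodes the more widely expressed form, had 200 RPKM. Together they held 49.9% ± 1.44 (SD, n = 24) of the members' summed RPKM in young retina and 50.5% ± 2.76 (SD, n = 23) in aged retina. That sum was 822 ± 47.1 RPKM in young and 823 ± 73.1 RPKM in aged libraries. The 36 members took 0.259% ± 0.0109 of all reads in young and 0.259% ± 0.0198 in aged libraries. The coding sequences of Slc25a4 and Slc25a5 are close to each other and Slc25a5 has processed pseudogenes, so the split of reads between such copies is uncertain. A pseudogene with the symbol Slc25a5-ps was listed at 0, and processed pseudogenes under other symbols were not looked for.

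The remaining members of the nucleotide and phosphate group spanned a wide range. Slc25a3, the phosphate carrier that supplies ATP synthase, had 49.8 RPKM. Among the calcium-regulated ATP-magnesium/phosphate carriers, Slc25a23 had 28.0 RPKM, Slc25a25 had 24.3 RPKM and Slc25a24 had 0.638 RPKM. Slc25a24 therefore lay close to the minimum of 0.5 RPKM, which it reached in 33 of 47 libraries.

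Both carriers of the malate-aspartate shuttle were present at high levels. Slc25a11, the oxoglutarate/malate carrier, had 51.2 RPKM, the next level after the ADP/ATP carriers, and Slc25a12, the calcium-regulated aspartate/glutamate carrier of neurons, had 18.1 RPKM. Its liver-type paralog Slc25a13 did not pass the minimum, with a mean of 0.239 RPKM and no library at 0.5. Of the other di- and tricarboxylate carriers, Slc25a1 (citrate) had 6.57 RPKM and Slc25a10 (dicarboxylates) had 5.67 RPKM. Slc25a22, the main glutamate carrier, had 23.5 RPKM, and its paralog Slc25a18 had 0.358 RPKM and reached the minimum in 9 libraries, the closest of the 11 excluded genes. Further amino acid carriers were Slc25a44 (branched-chain amino acids) at 22.3 RPKM, Slc25a38 (glycine, for haem synthesis) at 12.5 RPKM, Slc25a29 (basic amino acids) at 8.48 RPKM and Slc25a15 (ornithine) at 1.17 RPKM.

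Cofactor and nucleotide carriers were led by a single gene. Slc25a33, a pyrimidine nucleotide carrier, had 43.7 RPKM, while the related Slc25a36 had 4.56 RPKM. Slc25a17 (a peroxisomal carrier of coenzyme A, FAD and NAD) had 10.6 RPKM and Slc25a51 (mitochondrial NAD) had 8.09 RPKM. Lower levels were measured for Slc25a16 (linked to coenzyme A supply) at 5.37 RPKM, Slc25a32 (folate and FAD) at 3.23 RPKM, Slc25a42 (coenzyme A) at 3.18 RPKM and Slc25a26 (S-adenosylmethionine) at 1.86 RPKM. Both mitoferrins were present, Slc25a28 (mitoferrin-2, the form of most tissues) at 14.5 RPKM and Slc25a37 (mitoferrin-1, the form of red-cell precursors) at 5.61 RPKM. The glutathione carriers Slc25a39 and Slc25a40 had 9.33 and 0.826 RPKM, and Slc25a20, the carnitine/acylcarnitine carrier, had 3.33 RPKM. The uncoupling protein-like carriers Slc25a14, Slc25a27 and Slc25a30 had 7.15, 6.48 and 0.569 RPKM. Slc25a46, an outer-membrane protein that shapes mitochondria, had 6.83 RPKM, and 3 carriers given no substrate here, Slc25a35, Slc25a47 and Slc25a53, had 5.46, 2.93 and 1.41 RPKM. Other protein-coding members under the minimum were Slc25a45 (0.201 RPKM), Slc25a41 (0.188), Slc25a2 (0.172), Slc25a43 (0.133), Slc25a34 (0.0822), Slc25a21 (0.0605), Slc25a54 (0.0397), Slc25a48 (0.0356) and Slc25a31 (0.0312).

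**Figure D1:**
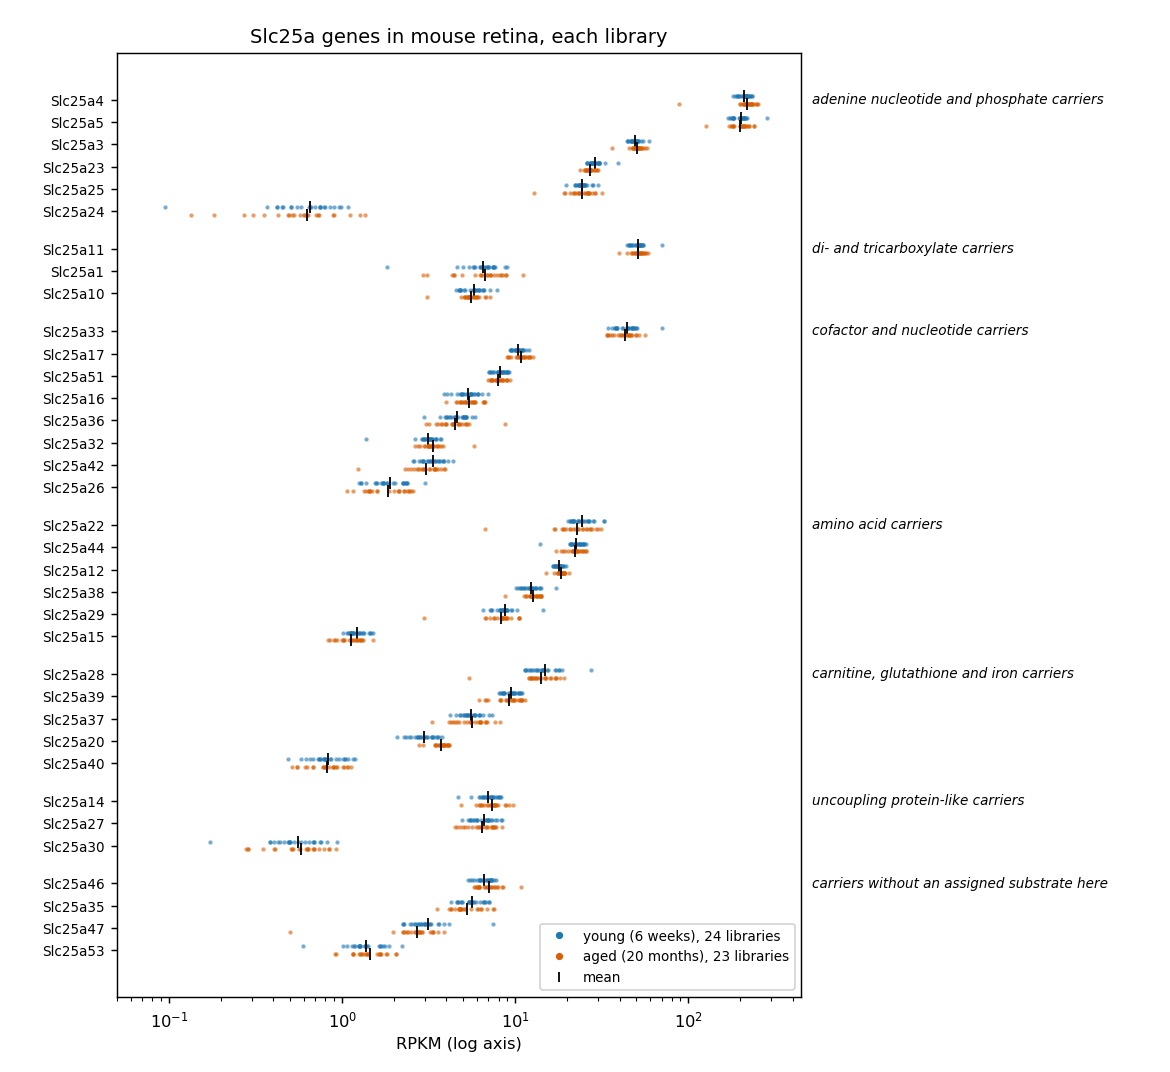
RPKM (log axis) of 35 Slc25a genes, grouped by role, with 1 point per library (24 young in blue, 23 aged in orange) and a tick at each mean. Slc25a4 and Slc25a5 sit near 214 and 200 RPKM, and Slc25a24 and Slc25a30 near 0.638 and 0.569 RPKM.

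Library totals ran from 32.0 to 55.5 M reads, and the median was 37.2 M among young and 37.0 M among aged libraries. Rod markers (6 genes) summed to 12812-20444 RPKM in young and 12536-21074 RPKM in aged libraries and were high in every library. Genes used as markers of neighbouring tissues were present as well. The 7 tested pigment epithelium (RPE) markers summed to 32.6-226 RPKM in young and 67.2-322 RPKM in aged libraries. In the same order, 8 lens markers summed to 0.60-1386 and 1.01-1064 RPKM, and 5 blood genes to 14.1-294 and 12.2-823 RPKM. Rlbp1 is in both the RPE and the Müller glia list, so RPE levels, also as a covariate, can include glia of the retina. 2 libraries stood apart, young ZT10 replicate 4 and aged ZT6 replicate 3. Over all tested genes their median absolute log2 distance from the group was 0.689 and 0.516, against at most 0.265 in the other 45 libraries. In young ZT10 replicate 4, the mean log2(RPKM + 0.5) of the markers was 2.80 for Müller glia and 1.51 for ganglion cells, against 6.13 and 5.11 in the other 3 libraries of the group, while that of rods was 10.52 against 10.05.

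Members in these 2 libraries lay outside the range of the other libraries of their group in most cases, 32 of 36 in young ZT10 replicate 4 and 31 of 36 in aged ZT6 replicate 3. In young ZT10 replicate 4, Slc25a33 had 70.2 RPKM against 36.3-38.2 in the other 3 libraries, Slc25a5 had 285 against 174-183, and Slc25a28 had 27.4 against 15.54-17.98. Slc25a1 in the same library had 1.81 RPKM against 6.24-6.99, and Slc25a44 had 13.8 against 24.35-25.07. In that library the deviations went both ways, with 20 members above and 16 below the mean of the others. In aged ZT6 replicate 3, 26 members were below that mean: Slc25a4 had 88.7 RPKM against 226-253, Slc25a28 had 5.39 against 14.05-16.99, and Slc25a47 had 0.497 against 2.48-3.33. The 10 members above it included Slc25a36, at 8.73 RPKM against 4.76-5.12. The counts of members called by adjusted p in the main tests below are therefore given with and without these 2 libraries.

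With age, the level of the family moved little and 1 member was called: Slc25a20 rose. Age was tested with limma on log2(RPKM + 0.5), in a model that also held the 6 times, over all 15321 genes that passed the minimum. A gene was called at a Benjamini-Hochberg adjusted p under 0.05. By this rule 1 of 36 members was called, while 4.24% of all tested genes were called in either direction, 2.41% as higher and 1.83% as lower in aged retina. With a fold over 1.5 as a further condition, no member was called, against 0.49% of all genes. The median difference of the members was -0.02 on the log2 scale, and that of all genes was -0.02 too, with 15 members positive and 21 negative. At an unadjusted p under 0.05, 8 of 36 members passed, against 15.7% of all genes.

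Slc25a20 imports acylcarnitines into the matrix, the step that brings long-chain fatty acids to beta-oxidation. Over 24 young libraries its lowest, median and highest values were 2.09, 2.93 and 3.79 RPKM, and over 23 aged libraries 2.78, 3.82 and 4.16 RPKM. The ranges overlapped, and 21 of 23 aged libraries lay above the young median. The young mean was 2.96 ± 0.460 RPKM (SD, n = 24) and the aged mean 3.73 ± 0.351 RPKM (SD, n = 23). The log2 difference was 0.30 ± 0.04 (SE), or 1.23-fold, with a limma adjusted p of 3.88e-06. In whole tissue, more cells of a type that express a gene and more RNA per cell cannot be told apart.

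The higher level of Slc25a20 was present at all 6 times, with a log2 difference that ran from 0.09 (ZT2) and 0.18 (ZT6) to 0.41 (ZT10), 0.40 (ZT14), 0.32 (ZT18) and 0.41 (ZT22). At ZT10 the 4 young libraries had 2.50, 2.70, 2.98 and 2.81 RPKM and the 4 aged libraries 3.66, 3.89, 4.01 and 3.67 RPKM. At ZT22 the young libraries had 2.81, 2.33, 3.04 and 2.88 RPKM and the aged libraries 3.43, 3.82, 3.87 and 4.16 RPKM. The groups did not overlap at ZT10, ZT14, ZT18 or ZT22. They did overlap at ZT2, where young libraries had 3.31-3.79 RPKM and aged libraries 3.61-4.07 RPKM, and at ZT6, with 2.09-3.55 and 2.92-3.90 RPKM. Taken singly, none of the 6 times passed the threshold over all genes, and the smallest limma adjusted p was 0.0588 at ZT10. A change of the Slc25a20 difference with time was not called by the interaction F test (limma adjusted p = 0.838). The mean log2 of the lens markers was 1.73 in aged and 2.76 in young retina, that of the RPE markers 2.57 and 2.25, and that of the blood genes 3.57 and 2.70. Of these, 3 of 8 lens markers were called as lower, and 1 of 7 RPE markers and 1 of 5 blood genes as higher. With RPE and lens marker levels as covariates the difference of Slc25a20 was 0.29, with a limma adjusted p of 6.77e-05, and it was again the 1 member called (2.49% of all genes). With the blood level as a covariate its difference was 0.29, with an adjusted p of 6.86e-05, and 2 members were called (3.59%).

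**Figure D2:**
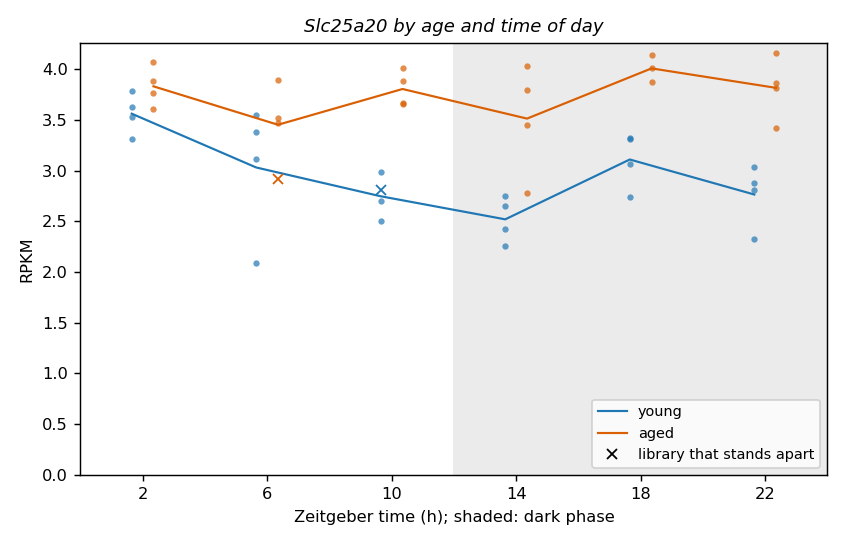
RPKM of Slc25a20 against Zeitgeber time, with 1 point per library, lines through the group means (young blue, aged orange), crosses for the 2 libraries that stand apart and shading for the dark phase. Aged means lie above young means at all 6 times, and the points of the 2 ages do not overlap at ZT10, ZT14, ZT18 and ZT22.

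The next member by p was Slc25a23, a calcium-regulated ATP-magnesium/phosphate carrier, with a young mean of 29.1 ± 2.75 RPKM (SD, n = 24) and an aged mean of 26.9 ± 1.56 RPKM (SD, n = 23). Its lowest, median and highest values were 25.9, 28.4 and 39.1 RPKM in young and 23.6, 27.0 and 30.2 RPKM in aged libraries, so the ranges overlapped widely. The log2 difference was -0.10 ± 0.03 (SE), negative at all 6 times, with a limma adjusted p of 0.0572. It passed with the blood level as a covariate, at -0.13 with an adjusted p of 0.0184.

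Leaving out the 2 libraries that stand apart raised the number of members called for age from 1 to 5, while the share of all genes called went from 4.24% to 16.5%. Slc25a20 then had a log2 difference of 0.31 ± 0.04 (SE). Slc25a4, at 0.10 ± 0.02, Slc25a3, at 0.07 ± 0.02, and Slc25a12, at 0.06 ± 0.02, were higher in aged retina, with limma adjusted p-values of 0.00231, 0.0335 and 0.0193. Slc25a23, at -0.08 ± 0.02, was lower, with an adjusted p of 0.0122. The 4 differences other than that of Slc25a20 were each 0.10 or less in size. Among the 6 members with the highest levels, Slc25a5 (0.05), Slc25a11 (0.04) and Slc25a33 (0.01) did not pass in that fit.

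**Figure D3:**
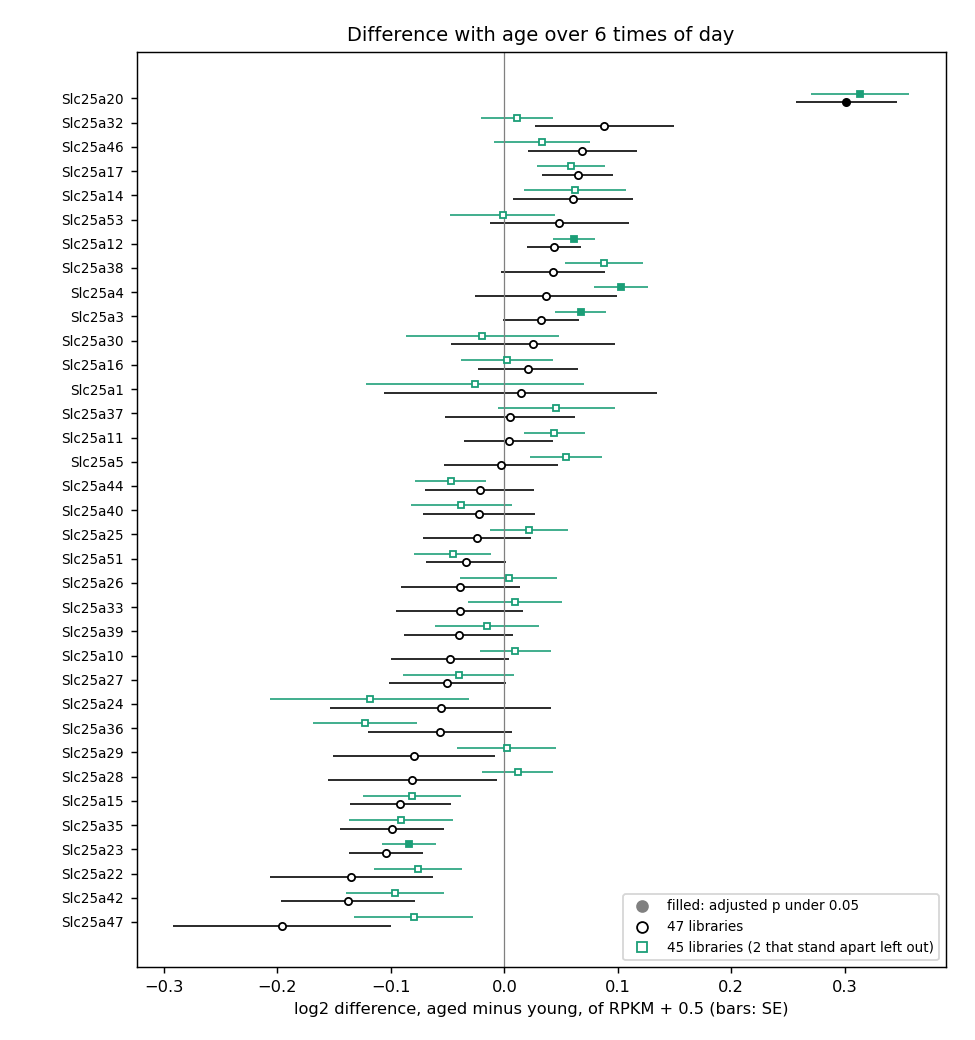
Log2 difference between aged and young retina (RPKM + 0.5, bars are SE) for 35 Slc25a genes, with all 47 libraries (black circles) and with 45 (green squares), filled where the limma adjusted p is under 0.05. Slc25a20 is the only gene filled in both fits, at 0.30 and 0.31.

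At single times, 2 members were called, both at ZT6, where 3.12% of all genes were called. One of them, Slc25a22, had 20.1, 23.1, 21.6 and 21.6 RPKM in the young ZT6 libraries and 19.0, 16.6, 6.71 and 19.7 RPKM in the aged ones, a log2 difference of -0.57 ± 0.17 (SE) with a limma adjusted p of 0.0473. Aged replicate 3 was the lowest of the 8 libraries. Without it, the difference was -0.22 (adjusted p = 0.523), so the call rests on that library. The call was also lost in 37 of the 47 fits that left out 1 library. At the other 5 times no member was called. In the order ZT2, ZT10, ZT14, ZT18 and ZT22, 0.144%, 0.496%, 0.248%, 0.255% and 0.17% of all genes were called there. At an unadjusted p under 0.05 these times gave 1, 3, 1, 3 and 2 members, against 4.47%, 12.6%, 5.46%, 3.58% and 4.13% of all genes, and limma on recovered reads (voom) also called none. The same count at ZT6 was 9 members, against 19.8% of all genes. Without both libraries that stand apart, Slc25a20 was called at ZT14 and at ZT22, with limma adjusted p-values of 0.0340 and 0.0341. Of all genes, 0.914% and 0.757% were called there. No member was called in that fit at ZT6 (1.38% of all genes), ZT2 (0.751%), ZT10 (0.587%) or ZT18 (0.822%).

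No member was called for an age difference that changed with time, as was true of all 15321 genes (0%). The same held without the 2 libraries that stand apart (0 members, 0% of all genes). At an unadjusted p under 0.05, 1 of 36 members passed, Slc25a25, against 4.8% of all genes, and voom called no member.

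More carriers were called for a rhythm over the day than for age, as was true of all tested genes. A 24 h cosine curve was fitted to log2(RPKM + 0.5) with limma, and its amplitude is the log2 distance from the mean of the curve to its peak. In young retina 9 of 36 members were called rhythmic, against 19.7% of all genes. In aged retina 8 members were called, against 14.4% of all genes, and 3 were called in both ages, against 7.56%. In a fit with 1 curve shared by both ages, 15 members were called, against 30.2% of all genes. The median amplitude of the members in the shared fit was 0.11, and that of all genes was 0.11. Of the 15 members, 8 peaked in the light phase and 7 in the dark phase, while 3142 of the 4633 called genes peaked in the light phase. Without the 2 libraries that stand apart, 13 of 21 called members peaked in the light phase and 8 in the dark phase. Of all genes called in that fit, 6012 of 8179 peaked in the light phase.

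Slc25a26, Slc25a22 and Slc25a35 were the 3 members called in both ages. Slc25a26 imports S-adenosylmethionine, the methyl donor of mitochondrial RNA and protein methylation. Young libraries had 2.32, 2.25, 2.36 and 2.99 RPKM at ZT10 and 1.68, 1.28, 1.57 and 1.72 RPKM at ZT22, and aged libraries 2.36, 2.51, 2.27 and 2.26 RPKM at ZT10 and 1.34, 1.49, 1.06 and 1.43 RPKM at ZT22. The ZT10 and ZT22 libraries did not overlap in either age. The shared curve peaked at 10.2 ± 0.455 h (SE), with an amplitude of 0.31 ± 0.04 (SE) or a 1.53-fold change from trough to peak. The amplitude was 0.29 ± 0.05 in young (limma adjusted p = 5.42e-04) and 0.34 ± 0.05 in aged retina (adjusted p = 4.98e-04).

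Slc25a22 brings glutamate into the matrix and peaked in the dark phase. Young libraries had 32.7, 26.2, 24.4 and 32.4 RPKM at ZT14 and 20.1, 23.1, 21.6 and 21.6 RPKM at ZT6. Aged libraries had 27.2, 27.7, 26.1 and 29.2 RPKM at ZT14, all above the 4 aged ZT6 libraries (6.71-19.7 RPKM). The shared curve peaked at 17.3 ± 0.592 h with an amplitude of 0.32 ± 0.05 (SE), or 1.56-fold from trough to peak. In aged retina the amplitude was 0.44 ± 0.09 with all libraries and 0.32 ± 0.04 without aged ZT6 replicate 3, against 0.21 ± 0.04 in young retina.

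Slc25a35 was highest around dawn. It had 6.59, 6.57, 7.06 and 6.79 RPKM in young ZT2 libraries and 4.67, 4.61, 4.62 and 5.39 RPKM in young ZT10 libraries. Aged ZT2 libraries had 4.27, 6.90, 7.57 and 7.48 RPKM, and aged ZT10 libraries 4.23, 3.52, 4.74 and 4.75 RPKM, so 1 aged ZT2 library lay within the range at ZT10. The shared curve peaked at 23.1 ± 0.674 h with an amplitude of 0.21 ± 0.04 (SE).

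**Figure D4:**
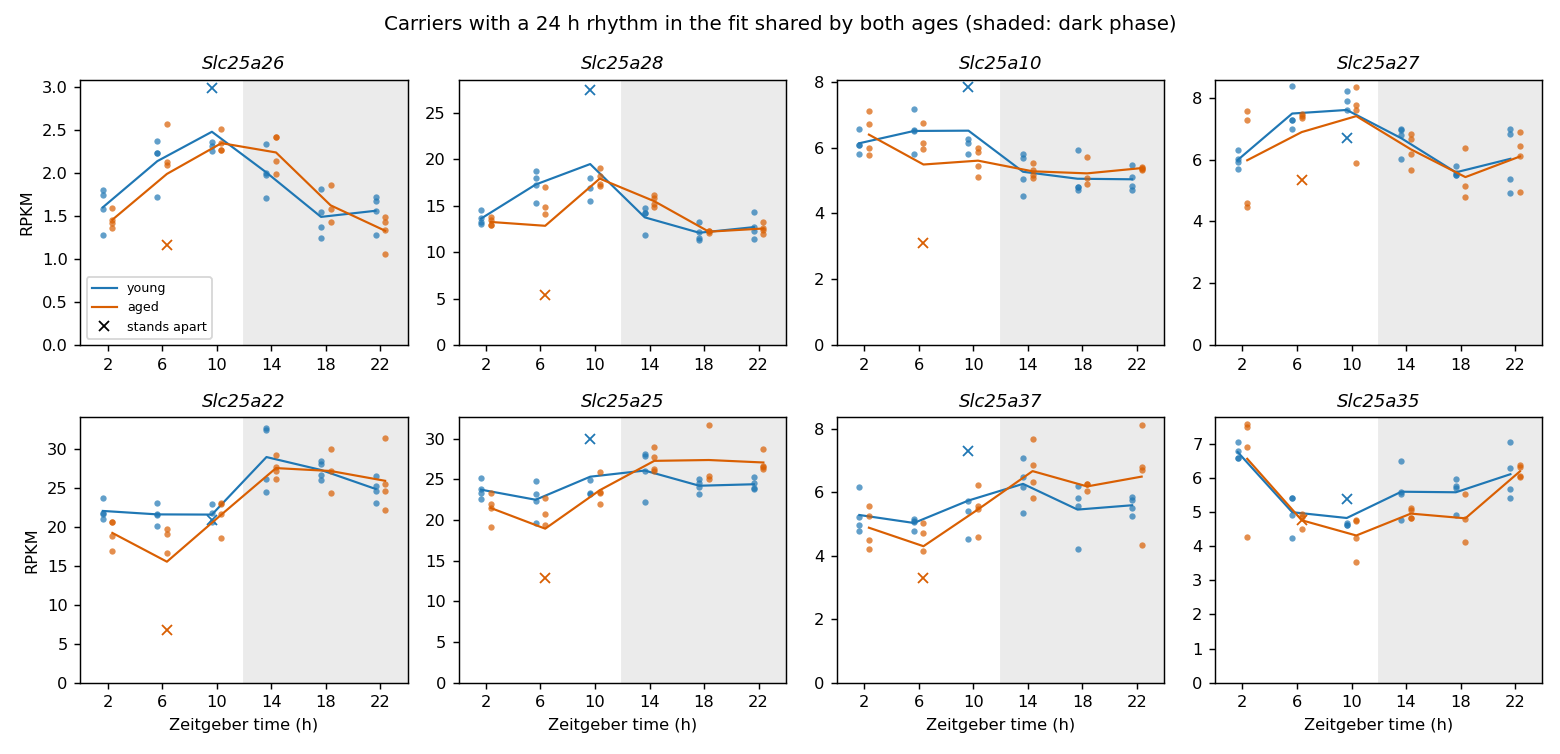
RPKM of 8 Slc25a genes against Zeitgeber time, with 1 point per library, lines through the group means (young blue, aged orange), crosses for the 2 libraries that stand apart and shading for the dark phase. Slc25a26, Slc25a28, Slc25a10 and Slc25a27 (upper row) peaked between 5.71 and 10.2 h in the shared fit, and Slc25a22, Slc25a25, Slc25a37 and Slc25a35 (lower row) between 16.6 and 23.1 h.

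Members called in young and not in aged retina peaked in the light phase. Slc25a28, mitoferrin-2, had 18.7, 17.95, 17.2 and 15.2 RPKM in young ZT6 libraries and 13.3, 11.3, 11.6 and 12.2 RPKM in young ZT18 libraries, without overlap. Its amplitude in young retina was 0.31 ± 0.05 (SE) with a peak at 8.19 ± 0.648 h and a limma adjusted p of 6.09e-04. In aged retina the amplitude was 0.21 ± 0.09 with an adjusted p of 0.223. Without the 2 libraries that stand apart it was 0.26 ± 0.03 in young and 0.25 ± 0.03 in aged retina, and both ages were called, so the call in 1 age rests on those libraries.

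Slc25a27 (amplitude 0.21 ± 0.04 (SE), peak at 8.70 h), an uncoupling protein-like carrier of neurons, and Slc25a10 (0.21 ± 0.04, 6.69 h), the dicarboxylate carrier, were also called in young retina, as were Slc25a16 (0.17 ± 0.04, 2.51 h) and Slc25a40 (0.17 ± 0.05, 5.49 h). In aged retina the amplitudes of these 4 were 0.16 ± 0.07, 0.08 ± 0.06, 0.15 ± 0.05 and 0.16 ± 0.06, with limma adjusted p-values of 0.193, 0.565, 0.0773 and 0.144. The call of Slc25a10 in young retina was lost with median-ratio scaling (amplitude 0.16, adjusted p = 0.0930) and with quantile normalization (0.15, 0.109). That of Slc25a16 was lost with quantile normalization (0.15, 0.0584). With RPE and lens levels as covariates both were lost, with limma adjusted p-values of 0.0881 for Slc25a10 and 0.0561 for Slc25a16.

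Members called in aged and not in young retina peaked in the dark phase, apart from Slc25a53. Slc25a25, a calcium-regulated ATP-magnesium/phosphate carrier, had 26.04, 26.3, 28.9 and 27.8 RPKM in aged ZT14 libraries and 20.7, 19.4, 12.9 and 22.7 RPKM in aged ZT6 libraries, without overlap. Its amplitude in aged retina was 0.28 ± 0.05 (SE) with a peak at 17.4 ± 0.693 h and a limma adjusted p of 0.00286, and 0.07 ± 0.03 in young retina with an adjusted p of 0.335. Without aged ZT6 replicate 3 the aged amplitude was 0.22 ± 0.03 and remained called.

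Slc25a37, mitoferrin-1, had an aged amplitude of 0.29 ± 0.06 (SE) with a peak at 17.2 h, and group means of 6.67 ± 0.796 RPKM at ZT14 and 4.31 ± 0.756 RPKM at ZT6 (SD, n = 4 each). Its peak in the shared fit, 16.6 ± 0.882 h, lay in the dark phase, and that of the other mitoferrin, Slc25a28, at 9.48 ± 0.883 h in the light phase. Slc25a33 (amplitude 0.21 ± 0.05, peak at 19.4 h), Slc25a39 (0.22 ± 0.06, 16.0 h) and Slc25a53 (0.22 ± 0.06, 8.20 h) were the other 3. In young retina the amplitudes of Slc25a37, Slc25a33, Slc25a39 and Slc25a53 were 0.10 ± 0.05, 0.08 ± 0.06, 0.11 ± 0.03 and 0.17 ± 0.07, with adjusted p-values of 0.372, 0.690, 0.0586 and 0.219. The aged call of Slc25a53 was lost with median-ratio scaling (amplitude 0.18, limma adjusted p = 0.0743) and with quantile normalization (0.14, 0.221).

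Passing in 1 age and not in the other did not show a difference between the ages. The test of the difference itself, an F test of the age by cosine and sine terms, called no member and 1 gene of all tested (0.00653%), and voom also called no member. At an unadjusted p under 0.05, 4 of 36 members passed, against 7.75% of all genes. They included Slc25a25, Slc25a32 and Slc25a37, each with a limma adjusted p of 0.606.

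**Figure D5:**
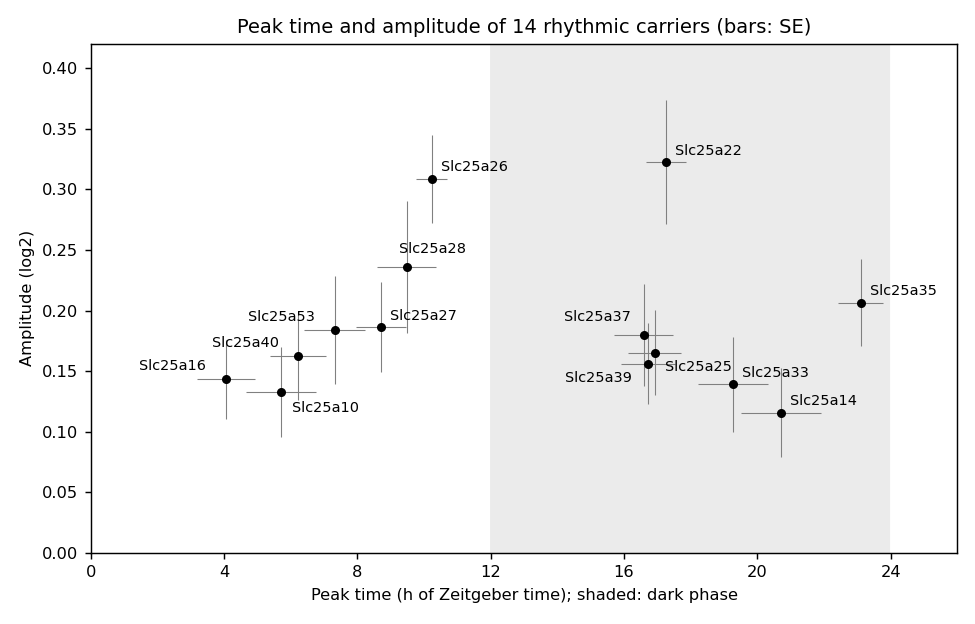
Amplitude (log2) against peak time (h of Zeitgeber time) of 14 Slc25a genes called rhythmic in the fit shared by both ages, with bars for SE and shading for the dark phase. 7 genes peak between 4.06 h (Slc25a16) and 10.2 h (Slc25a26) and 7 between 16.6 h (Slc25a37) and 23.1 h (Slc25a35), and none between 10.2 and 16.6 h.

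The remaining members called in the shared fit were Slc25a40 (glutathione), with a peak at 6.23 h, and Slc25a14, an uncoupling protein-like carrier, with a peak at 20.7 h. By role, and beside the 30.2% of all genes called in the shared fit, 4 of 9 cofactor and nucleotide carriers were called, as were 4 of 5 carnitine, glutathione and iron carriers, 2 of 3 uncoupling protein-like carriers and 2 of 4 carriers given no substrate. Among the 6 nucleotide and phosphate carriers Slc25a25 was called, among the 3 di- and tricarboxylate carriers Slc25a10, and among the 6 amino acid carriers Slc25a22. Without the 2 libraries that stand apart, where 53.4% of all genes were called, the counts by role were 6 of 9 cofactor and nucleotide carriers, 4 of 5 carnitine, glutathione and iron carriers, 1 of 3 uncoupling protein-like carriers, 3 of 4 carriers given no substrate, 4 of 6 nucleotide and phosphate carriers, 1 of 3 di- and tricarboxylate carriers and 2 of 6 amino acid carriers. The members called only then were Slc25a4, Slc25a23, Slc25a24, Slc25a44, Slc25a36, Slc25a42 and Slc25a47.

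The most abundant carriers had shallow curves: the shared amplitude was 0.08 ± 0.04 (SE) for Slc25a4, 0.07 ± 0.04 for Slc25a5, 0.06 ± 0.02 for Slc25a3 and 0.04 ± 0.03 for Slc25a11, none of which was called. Without the 2 libraries Slc25a4 passed, at 0.06 ± 0.02 with a limma adjusted p of 0.0432, and Slc25a5, Slc25a3 and Slc25a11 did not, with adjusted p-values of 0.131, 0.0779 and 0.270.

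Some markers of other tissues were also called rhythmic. The mean log2 of the RPE markers was 1.85 in the light and 2.65 in the dark phase in young retina and 1.95 and 3.26 in aged retina, and 4 of 7 were called rhythmic in each age. Blood genes had a mean log2 of 2.56 and 2.85 in young and of 2.55 and 4.68 in aged retina, and of the 5 none was called rhythmic in young and all 5 in aged retina. Of the 8 lens markers, none was called in young and 1 in aged retina. Within the retina, bipolar cell markers had 3.74 in the light and 4.24 in the dark phase in young retina. In aged retina they had 3.59 and 4.02. Of these 6 markers, 1 was called rhythmic in young and 4 in aged retina. The young light mean includes young ZT10 replicate 4, at 1.56 against a mean of 3.97 in the others of its group. With RPE and lens levels as covariates, 7 members were rhythmic in young (12.7% of all genes), 1 in aged (2.1%) and 10 in the shared fit (21.4%). The 1 aged member was Slc25a26, with a limma adjusted p of 0.00442, and the adjusted p of Slc25a22 in aged retina was 0.305. With the blood level as a covariate, the members called were 8 in young (23.9% of all genes), 5 in aged (6.72%) and 12 in the shared fit (28.7%). Of the members called in aged and not in young retina, Slc25a25 and Slc25a37 passed in that aged fit, with limma adjusted p-values of 0.0362 and 0.0384. Slc25a33, Slc25a39 and Slc25a53 did not, with adjusted p-values of 0.351, 0.0584 and 0.307. The part of these tissues and of bipolar cells in the rhythm of the carriers was not tested.

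Without the 2 libraries that stand apart, more carriers and more genes in general were called rhythmic: 12 members in young (34% of all genes), 14 in aged (27.3%), 9 in both (19.4%) and 21 in the shared fit (53.4%). Those called in both ages then included Slc25a28, Slc25a10, Slc25a16, Slc25a33, Slc25a39 and Slc25a53 beside Slc25a26, Slc25a22 and Slc25a35. Slc25a14, called in the shared fit with all libraries, was not called there (adjusted p = 0.0748). No member was called for a different rhythm in that fit, and no gene of all tested (0%).

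Other genes that act with the carriers were set beside them as 5 lists. None of their 37 tested genes was called for age with all libraries. Without the 2 libraries that stand apart, 10 of the 37 were called, 9 as higher and 1 as lower in aged retina, against 16.5% of all genes. Of all genes called in that fit, 1110 were higher and 1423 lower in aged retina. The higher ones included Vdac2, a porin of the outer membrane (log2 difference 0.10 ± 0.02, SE, limma adjusted p = 0.00123), the import chaperone Timm13 (0.14 ± 0.04, 0.00519), Smdt1, a subunit of the calcium uniporter (0.15 ± 0.04, 0.00530), the malate dehydrogenase Mdh2 (0.09 ± 0.02, 0.00559) and Ucp2, an uncoupling protein (0.23 ± 0.06, 0.0113). The lower one was Gpd1l, at -0.10 ± 0.03 (0.0247). With all libraries the differences of Vdac2, Timm13 and Smdt1 were 0.07, -0.04 and 0.02. Those of Mdh2, Ucp2 and Gpd1l were 0.03, 0.20 and -0.05. These 6 were named after their values were seen.

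In the shared rhythm fit, 13 of the 37 genes were called with all libraries, against 30.2% of all genes, and 22 without the 2 libraries, against 53.4%. Of those called, 11 of 13 and 18 of 22 peaked in the light phase, as did 3142 of 4633 and 6012 of 8179 of all genes called. Carrier family members under other names were tested for 3 of 5, and of these Ucp2 was called in the shared rhythm fit (1.79 RPKM, amplitude 0.17 ± 0.05, peak at 14.4 h), and Mtch1 (36.8 RPKM) and Mtch2 (5.88 RPKM), insertases of the outer membrane, were not. Of 10 genes for the import of carriers into the inner membrane, 5 were called in the shared fit, each with a peak in the light phase, and 7 without the 2 libraries, 6 of them in the light phase. They included the small chaperones of the intermembrane space Timm9 (2.88 RPKM, amplitude 0.19 ± 0.03, peak at 8.43 h), Timm8a1 (3.52 RPKM, 0.23 ± 0.04, 10.9 h) and Timm10 (8.19 RPKM, 0.21 ± 0.05, 7.47 h).

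Among 10 genes of the pyruvate carrier, sideroflexins and porins, 3 were called with all libraries and 5 without the 2, each with a peak in the light phase. The sideroflexins Sfxn2 (2.03 RPKM, amplitude 0.41 ± 0.04, peak at 7.46 h) and Sfxn4 (3.53 RPKM, 0.27 ± 0.03, 6.45 h) were called in each age, and Mpc1 (3.67 RPKM, 0.20 ± 0.06, 8.58 h) encodes a subunit of the pyruvate carrier. Of 7 shuttle enzymes, 1 was called with all libraries and 5 without the 2. Got1, the cytosolic aspartate aminotransferase of the malate-aspartate shuttle, was the 1 called with all (176 RPKM, amplitude 0.205 ± 0.035, peak at 19.2 h), and Got2 and Mdh1 did not pass there, with amplitudes of 0.06 ± 0.02 and 0.08 ± 0.03. Of 7 calcium uniporter genes, 4 were called without the 2 libraries and 3 with all: Mcur1 (1.88 RPKM, peak at 7.54 h), Mcu (4.08 RPKM, 9.78 h) and Micu2 (4.44 RPKM, 7.03 h), with amplitudes of 0.12 ± 0.03, 0.08 ± 0.02 and 0.13 ± 0.04.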

How the data were processed

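Per the labels' protocols, retinal mRNA was enriched on poly-T beads and copied into cDNA from random primers. FastQC 0.23.4, HISAT2 2.2.1, Subread 2.0.6 and GRCm39 are named in the submitters' processing notes, without their roles. The authors deposited RPKM values, 1 column per library. 1 column matched no sample and was not used. Symbols and biotypes came from GENCODE M21 of an earlier build (51933 of 57180 identifiers had a symbol), so no coordinates of the deposited genes are given. Reads per gene were recovered from the RPKM steps, within 0.01 of a whole number for 37323 of 37323 genes above 0; where the annotation's exon length failed, the smallest length giving whole reads was used, so that share is partly built in.

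The 15321 genes that reached 0.5 RPKM in 12 or more libraries entered limma (version 3.58.1, eBayes trend, under R 4.3.3) as log2(RPKM + 0.5), a scale that understates changes of low genes. P-values were adjusted over all tested genes. Age was fitted with time as a factor, single times from 12 group means, and rhythm with cosine and sine terms of 24 h. These tests take the place of the edgeR, MetaCycle and CircaCompare of the design text, which were not run here; RPKM are not counts. Scripts were tested on simulated data. Named with values by group were all called members, up to 5 rhythmic in 1 age only, the 6 highest by level, and up to 3 genes per other list; Slc25a40 and the members called only without the 2 libraries were added after their values were seen. Alternatives were other pseudocounts, filters and scalings, voom on recovered reads, a replicate block, array weights, covariates and left-out libraries. The values of 1 member are not reported here. The members and lists were chosen with earlier results of these data known.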

Additional observations from a re-analysis of the deposited data

Results flagged for a closer look

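In 16 of 198 groups of 4 libraries, for the members given by group, 1 library lay far from the other 3 by Dixon's test of the gap over the range, and chance flags about 1 in 20 groups. 8 of the 16 were young ZT10 replicate 4: it had 2.99 RPKM of Slc25a26 against 2.25-2.36 in the others, 5.39 of Slc25a35 against 4.61-4.67, 70.2 of Slc25a33 against 36.3-38.2, 10.4 of Slc25a39 against 8.41-8.57, 0.595 of Slc25a53 against 1.65-1.77, 285 of Slc25a5 against 174-183, 70.6 of Slc25a11 against 46.2-49.1, and 59.5 of Slc25a3 against 44.97-46.7. Aged ZT6 replicate 3 had 88.7 RPKM of Slc25a4 against 226-253 and 5.34 of Slc25a27 against 7.36-7.47.

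The other 6 were spread over single libraries. Slc25a10 was high in young ZT18 replicate 1 (5.91 RPKM against 4.70-4.81), and Slc25a25 in aged ZT22 replicate 1 (28.7 against 26.3-26.7). Slc25a53 was low in aged ZT22 replicate 3 (0.911 against 1.15-1.16), and Slc25a5 in young ZT2 replicate 1 (182 against 200-203). Slc25a3 was low in aged ZT10 replicate 3 (48.1 against 50.6-51.0) and high in aged ZT22 replicate 4 (52.1 against 48.3-48.8).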

How the results depend on the processing

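The difference of Slc25a20 with age kept its sign and passed in each alternative fit, at 0.27 to 0.34. Without each of the 47 libraries in turn it was 0.28 to 0.32. Slc25a20 did not pass with a fold over 1.5 as a further condition. Of the single members' values recomputed under an alternative, none changed sign, 806 kept the call and 116 lost it. Members called for age numbered 5 with array weights (15.6% of all genes) and 5 without both libraries that stand apart (16.5%). They numbered 2 with the blood covariate (3.59%) and 0 with a fold over 1.5 (0.49%). Leaving out 1 library gave 1 to 3 members, the highest without aged ZT6 replicate 3. At ZT6, the 2 calls became 0 with no filter, median-ratio scaling, quantile normalization, array weights, either covariate set or without both libraries. In those fits 0.855% to 4.24% of all genes were called. The calls became 1 with a pseudocount of 0.1 (2.90%), and leaving out 1 library gave 0 to 7. Array weights give poorly fitting libraries less weight. With them 6 members were called at ZT2 (21.8% of all genes), 1 at ZT10 (2.87%) and 12 at ZT18 (20.6%). They also gave 1 member at ZT22 (2.35%) and 3 for the interaction (10.4%). For rhythm they called 18 members in young (46.1%), 22 in aged (39.3%) and 29 in the shared fit (64.1%). The cause was not tested. Without both libraries 1 member was called at ZT14 (0.914% of all genes) and 1 at ZT22 (0.757%), and 14 were rhythmic in aged retina (27.3%). Rhythmic members in aged retina numbered 1 with RPE and lens covariates (2.1% of all genes), 5 with the blood covariate (6.72%) and 4 with time as a factor (6.55%). Without 1 library, ZT10, ZT14 and ZT22 gave 0 to 1, and ZT2, ZT18, the interaction and the different rhythm 0. Young gave 7 to 12, aged 7 to 14 and shared 13 to 17. Shares of all genes are not given for fits without 1 library. Slc25a39 and Slc25a53 lost their aged call in 6 and 3 of 23 such fits.

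Deviations of libraries with the same replicate number correlated at 0.03 on average over 253 pairs, 90 of them above 0.1. Those with different numbers correlated at -0.01 over 759 pairs, 202 of them above 0.1. Deviations were taken from group means, which holds the average over all these pairs near 0, so these averages depend on each other. Single pairs ran from -0.59 to 0.68 with the same number and from -0.69 to 0.62 with different numbers. These values do not settle whether replicate numbers pair the libraries. With the replicate block, 1 member was called for age (4.55% of all genes) and 3 at ZT6 (3.94%). For rhythm, 8 were called in young (19.2%), 8 in aged (15.6%) and 15 in the shared fit (30.9%). Members with few reads are measured less precisely, such as Slc25a24, with a median of 76 reads per library. Its lowest count, 18 reads, was in young ZT10 replicate 4, which stands apart and has the highest total (55.5 M reads).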
